A study of Mus musculus with 2 samples.

Results

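Creatine cycling consumes ATP without a net product. Creatine kinase moves a phosphate from ATP to creatine, a phosphatase removes it from phosphocreatine, and the creatine returns to the kinase while the released ADP drives respiration and heat production in thermogenic fat. Cells obtain creatine by 2 routes: synthesis from arginine and glycine by a mitochondrial amidinotransferase followed by a methyltransferase, or uptake through a sodium-dependent transporter. Creatine kinases exist as cytosolic and mitochondrial enzymes, and the brain-type cytosolic enzyme and the tissue-nonspecific alkaline phosphatase have both been described as parts of this cycle in brown adipocytes.

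The set described here holds the 8 mouse genes that encode these steps, grouped by function. Gatm and Gamt encode the synthetic enzymes, Slc6a8 the transporter, Ckb and Ckm the brain-type and muscle-type cytosolic kinases, Ckmt1 and Ckmt2 the ubiquitous and sarcomeric mitochondrial kinases, and Alpl the phosphatase. All 8 had a value among the 23359 gene symbols measured. RNA sequencing was carried out on brown preadipocytes (D0) and on the brown adipocytes derived from them (D7), with 1 library per stage. Cells came from the interscapular brown fat of newborn C57BL/6 mice. In both groups they spent 4 days before day 0 in medium with insulin (0.1 μM) and T3, the active thyroid hormone (1 nM). The D7 cells in addition received 3 inducing agents for 2 days, namely IBMX, a phosphodiesterase inhibitor (0.5 mM), the glucocorticoid dexamethasone (2 μg/ml) and indomethacin (0.125 mM), and were then returned to the insulin and T3 medium until harvest. The labels call the cells primary cultures, whereas the methods of the study describe cells immortalised with a T antigen, and neither says whether the RNA of several animals was pooled. The concentrations and the strain are those of the labels, and the methods give other concentrations of insulin and dexamethasone and the substrain C57BL/6J.

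Levels are given as FPKM (fragments relative to transcript length and to the size of the library), which is a level per length and can be set against that of another gene in the same library. With 1 library per stage there was no replicate check, so no p-value could be given and a ratio of at least 2.0-fold was counted as a difference between these 2 libraries. The number of sequenced fragments behind a value was recovered from the step size of the low FPKM values, which corresponded to 21471746 fragments at D0 and 18261370 at D7. The 95% intervals below come from these fragments, and cover counting error only. They include neither culture-to-culture variation nor any duplicate reads that remained, although the methods of the study list the removal of duplicates. The stage labels were checked on marker genes. All 7 adipocyte markers were higher at D7 (median log2 ratio 9.47), Fabp4, a fatty acid carrier, going from 20.3 to 14391 FPKM. All 7 brown adipocyte markers reached an FPKM of at least 1 at D7, including the thermogenic uncoupling protein Ucp1, which was listed at 0 at D0 and at 4.57 at D7. Of these 7, 4 were listed at 0 at D0, and 2 of the 3 above 0 in both libraries were higher (median log2 ratio 2.47). Of 5 preadipocyte markers, 2 were lower and 1 was higher (median log2 ratio -0.43).

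The 8 genes fell into an abundant and a scarce set. Ckb, Slc6a8 and Gamt had an FPKM of at least 10 in both libraries. Gatm, Ckmt1 and Alpl were above 0 but under 1 in both, and Ckm and Ckmt2 were listed at 0 in both. Of the 6 genes above 0 in both libraries, 2 were at least 2.0-fold lower at D7 (Ckb and Slc6a8), 2 were at least 2.0-fold higher (Alpl and Ckmt1) and 2 lay within that range (Gamt and Gatm). Among the 14984 symbols above 0 in both libraries, 13.2% were at least 2.0-fold lower and 18.5% at least 2.0-fold higher. The 2 genes that were lower were the most abundant of the 8 at D0, and the 2 that were higher had under 1 FPKM at both stages. The summed FPKM of the 8 genes was 165 at D0 and 90.1 at D7.

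**Figure D1:**
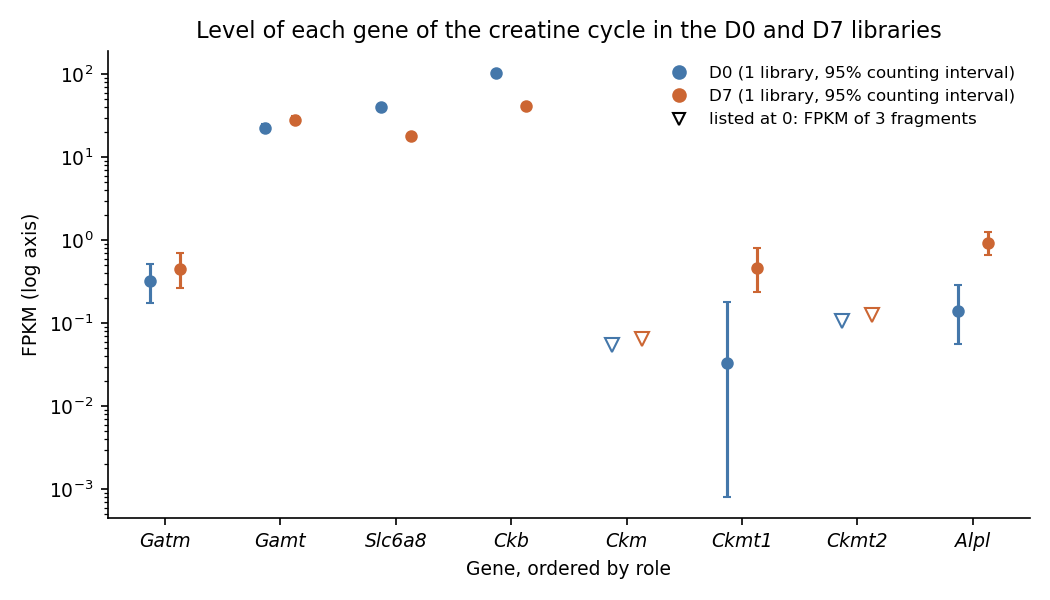
FPKM (log axis) of the 8 creatine cycle genes in the D0 library (blue) and the D7 library (orange), ordered from synthesis to phosphatase, with bars for the 95% counting interval and open triangles for the FPKM that 3 fragments would give where a gene was listed at 0. Ckb and Slc6a8 lie lower at D7, Ckmt1 and Alpl lie higher but under 1 FPKM, and Ckm and Ckmt2 have only limits.

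The 4 kinase genes are related in sequence. The stretches below are 90 coding bases of each gene, read from the GRCm38 (mm10) genome in the coding direction, and are shown because they surround the codon of the reactive cysteine of the active site, given in capitals, where the family is strongly conserved. All 4 lie within 1 coding exon: exon 7 of 8 for Ckb (chr12:111669900-111669989, minus strand) and for Ckm (chr7:19420132-19420221, plus strand), exon 7 of 9 for Ckmt1 (chr2:121362700-121362789, plus strand) and exon 8 of 10 for Ckmt2 (chr13:91858231-91858320, minus strand).
Ckb: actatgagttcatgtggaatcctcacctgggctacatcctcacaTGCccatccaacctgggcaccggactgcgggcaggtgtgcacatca
Ckm: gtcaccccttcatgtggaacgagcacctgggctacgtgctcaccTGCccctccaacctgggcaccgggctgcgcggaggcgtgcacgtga
Ckmt1: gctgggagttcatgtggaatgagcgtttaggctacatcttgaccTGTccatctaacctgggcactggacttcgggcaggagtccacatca
Ckmt2: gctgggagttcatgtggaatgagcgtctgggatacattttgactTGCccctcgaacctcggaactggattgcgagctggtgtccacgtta
The cysteine is codon 283 in the cytosolic kinases and codon 317 in the mitochondrial ones. Within these stretches Ckb shared 69 of 90 bases with Ckm and 71 of 90 with Ckmt1. Over the whole coding regions Ckb was 75.8% identical to Ckm with a longest shared run of 20 bases, and Ckmt1 was 71.6% identical to Ckmt2 with a longest shared run of 39 bases. How reads that match several genes were handled is not given in the sources used here.

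Gatm, the mitochondrial amidinotransferase that makes guanidinoacetate and the first enzyme of creatine synthesis, was measured at 0.321 FPKM at D0 and 0.453 FPKM at D7. These values rested on 15 and 18 fragments, and the D7/D0 ratio of 1.41 had an interval of 0.672 to 3.01, so a difference was not detectable at this depth. The gene (ENSMUSG00000027199.14) lies at chr2:122594467-122611303 on the minus strand. Gamt, the methyltransferase that turns guanidinoacetate into creatine, was far more abundant, at 22.5 FPKM at D0 and 28.2 FPKM at D7 (391 and 415 fragments). Its ratio was 1.25, with an interval of 1.09 to 1.44 that lay above 1 and below the 2.0-fold threshold. Within a library the level of Gamt was 70.2 times that of Gatm at D0 and 62.2 times at D7, so the 2 steps of synthesis were measured at very unequal levels in both. The Gamt gene (ENSMUSG00000020150.13) lies at chr10:80258151-80261012 on the minus strand. The deposited table places it in a merged locus of 672 kb that 46 symbols share, each with a value of its own.

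Slc6a8, the sodium- and chloride-dependent creatine transporter, was measured at 39.8 FPKM at D0 and 18.3 FPKM at D7, from 3233 and 1262 fragments. The D7 level was 2.18-fold lower (2.04 to 2.33; log2 ratio -1.12). The gene (ENSMUSG00000019558.14) lies at chrX:73673150-73682502 on the plus strand. At D0 it exceeded 91.2% of the measured genes and at D7 82.3%, and 11.0% of the genes above 0 in both libraries had a ratio as low or lower. Slc6a8 and Gamt changed places between the stages, with a Slc6a8 to Gamt ratio of 1.77 at D0 and 0.649 at D7.

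Ckb, the brain-type cytosolic kinase, was the most abundant of the 8 genes at both stages. It was measured at 103 FPKM at D0 and 41.8 FPKM at D7, from 2847 and 985 fragments. The D7 level was 2.45-fold lower (2.28 to 2.64; log2 ratio -1.29), and 9.19% of genes above 0 in both libraries had a ratio as low or lower. Its interval and that of Slc6a8 both lay entirely below a ratio of 0.500. Even so, Ckb still exceeded 91.3% of genes at D7, against 96.6% at D0. Among the 5999 symbols with at least 10 FPKM at D0, 12.4% were at least 2.0-fold lower. Relative to the transporter the kinase kept a similar level, with a Ckb to Slc6a8 ratio of 2.58 at D0 and 2.29 at D7, whereas its ratio to Gamt was 4.55 at D0 and 1.48 at D7. The gene (ENSMUSG00000001270.9) lies at chr12:111669361-111672338 on the minus strand.

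In a bulk library, fewer cells that express a gene and less of its RNA per cell cannot be told apart. This holds for the lower Ckb and Slc6a8 levels, and Ckb is also expressed in neurons and glia. Of 9 neuron and glia markers, 3 were higher and 2 lower at D7 (median log2 ratio 0.27). Syt1, 1 of the 2 lower, rested on 5 and 2 fragments (ratio interval 0.0448 to 2.87). The summed level of the 9 markers was 104 FPKM at D0 and 26.9 FPKM at D7. Nearly all of the D0 sum came from Tubb3, a tubulin subunit, at 101 and 18.0 FPKM, while Rbfox3, a defining neuronal gene, was listed at 0 in both. Their part in the Ckb values was not tested.

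**Figure D2:**
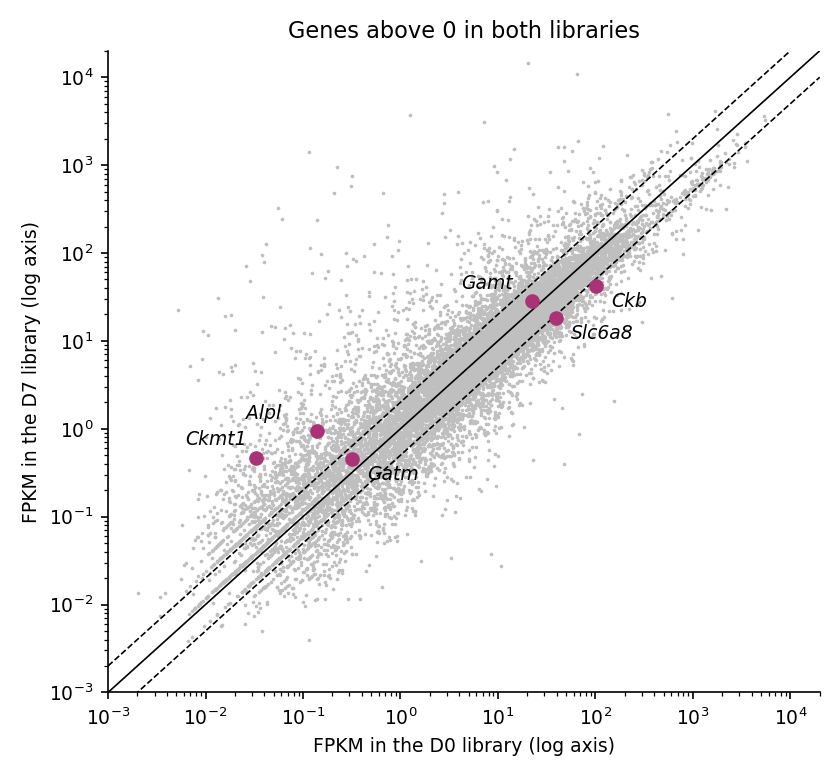
FPKM in the D7 library against FPKM in the D0 library (both log axes) for the 14984 symbols above 0 in both (grey), with the 6 creatine cycle genes among them marked; the solid line is equality and the dashed lines are 2.0-fold. Ckb and Slc6a8 lie among the abundant genes below the lower dashed line, while Alpl and Ckmt1 lie above the upper one in the low range where the cloud is wide.

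Ckm, the muscle-type cytosolic kinase, and Ckmt2, the sarcomeric mitochondrial kinase, were listed at 0 FPKM in both libraries. For Ckm (chr7:19404776-19422841, plus strand), 3 fragments, which a count of 0 still allows, would give 0.0545 FPKM at D0 and 0.0642 FPKM at D7. The limits were 0.132 and 0.156 FPKM on the 1235-base transcript whose ends lie nearest to those of the deposited Ckm locus. For Ckmt2 (chr13:91853387-91876885, minus strand), 3 fragments would give 0.107 FPKM at D0 and 0.126 FPKM at D7. Among all symbols 28.6% were listed at 0 in both libraries. Of 76 ribosomal protein genes, the only ones listed at 0 in a library were Rpl10l and Rpl3l, both tissue-restricted copies. That count does not show how reliable a listed 0 is for a scarce gene. The exons of Ckm overlap those of A930016O22Rik on the opposite strand, which was itself listed at 0 in both libraries. The exons of Ckmt2 overlap those of 1700119I11Rik, also on the opposite strand.

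Ckm and Ckmt2 are both markers of striated muscle, which lies close to interscapular fat. Of 21 other skeletal muscle markers, 2 had an FPKM of at least 1 at D0 and 4 at D7, and their summed level was 49.0 FPKM at D0 and 19.1 FPKM at D7. The myogenic regulators Myod1 and Myf5 were listed at 0 in both. Of the 21, 10 were above 0 in both libraries, with 2 higher and 4 lower (median log2 ratio -0.43), 7 had fragments in the D7 library alone, 2 in the D0 library alone and 2 in neither. The higher genes were Myh1, from 3 and 59 fragments (ratio 23.5, 7.67 to 117), and Tnni1, from 9 and 18. Among the lower genes, Tnnt1 rested on 20 and 7 fragments, Tnnt3 on 11 and 1 and Ryr1 on 14 and 3. The median was -1.26 over the genes with an FPKM of at least 1 in a library. Acta1, skeletal actin, accounted for 45.4 FPKM at D0 and 1.73 FPKM at D7, whereas Mb, myoglobin, was listed at 0 at D0 and at 12.1 FPKM at D7. Of 5 heart muscle markers, none was higher and 1 was lower (median log2 ratio -0.45 over 3 genes), and Myh6 and Myl7 were at 0 in both.

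Ckmt1, the ubiquitous mitochondrial kinase, was measured at 0.0330 FPKM at D0, a single fragment, and at 0.467 FPKM at D7, from 12 fragments. The D7/D0 ratio was 14.1, with an interval of 2.09 to 604 that leaves the size of the difference largely undetermined. With 0.1 FPKM added to both values it was 4.26, and with 1 FPKM added it was 1.42, within 2.0-fold. The gene (ENSMUSG00000000308.14) lies at chr2:121357714-121363737 on the plus strand. Its exons overlap those of Strc on the opposite strand, which shares its deposited locus and was listed at 0 in both libraries, and whether fragments were assigned by strand is not given in the sources used here, although the methods describe a library that kept the strand. The 4 kinases together summed to 103 FPKM at D0 and 42.3 FPKM at D7. Ckb made up 99.97% of that sum at D0 and 98.9% at D7, and Ckmt1 0.0322% and 1.10%. Counted in fragments, the Ckmt1 share at D7 was 1.20% (exact binomial interval 0.623% to 2.09%). For Ckm and Ckmt2 the limit of 3 fragments was 0.105% of kinase fragments at D0 and 0.301% at D7.

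Alpl, the tissue-nonspecific alkaline phosphatase, which hydrolyses phosphocreatine and other phosphate esters, was measured at 0.139 FPKM at D0 and 0.938 FPKM at D7, from 7 and 40 fragments. The ratio was 6.73 (2.98 to 17.8), so the whole interval lay above 2.0-fold, while the D7 level stayed under 1 FPKM. With 0.1 FPKM added to both values the ratio was 4.34, and with 1 FPKM added it was 1.70, within 2.0-fold. The gene (ENSMUSG00000028766.10) lies at chr4:137741733-137796384 on the minus strand. Alpl also marks bone-forming cells. Of 9 osteoblast and cartilage markers, 4 were above 0 in both libraries, of which 1 was higher and 2 lower (median log2 ratio -1.08), and the summed level was 362 FPKM at D0 and 129 FPKM at D7, nearly all of it Spp1, osteopontin. Another 2 had fragments in the D7 library alone and 1 in the D0 library alone. Of the osteoblast regulators, Sp7 was at 0.133 and 0.0521 FPKM and Runx2 at 4.85 and 2.78 FPKM. Sp7, 1 of the 2 lower markers, rested on 8 and 3 fragments, with a ratio interval of 0.0670 to 1.63. The higher marker was Col10a1, a cartilage collagen, at 0.0473 and 0.260 FPKM, from 3 and 14 fragments. Of 10 macrophage markers, 9 were higher at D7 (median log2 ratio 2.17) and the summed level was 154 FPKM at D0 and 569 FPKM at D7. Of 6 endothelial markers, 2 were higher and 1 lower (median log2 ratio 0.23), with summed levels of 1.58 and 2.62 FPKM. Their part in the Alpl and Ckmt1 values was not tested.

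At D0 the order of levels was Ckb, Slc6a8, Gamt, Gatm, Alpl and Ckmt1. The counting intervals of the first 3 did not overlap with their neighbours, whereas those of Gatm (0.177 to 0.521 FPKM) and Alpl (0.0559 to 0.287 FPKM) overlapped, as did those of Alpl and Ckmt1. At D7 the order was Ckb, Gamt, Slc6a8, Alpl, Ckmt1 and Gatm. The intervals of Ckb, Gamt and Slc6a8 again lay apart. Those of Alpl (0.669 to 1.27 FPKM), Ckmt1 (0.236 to 0.798 FPKM) and Gatm (0.265 to 0.706 FPKM) overlapped with one another.

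**Figure D3:**
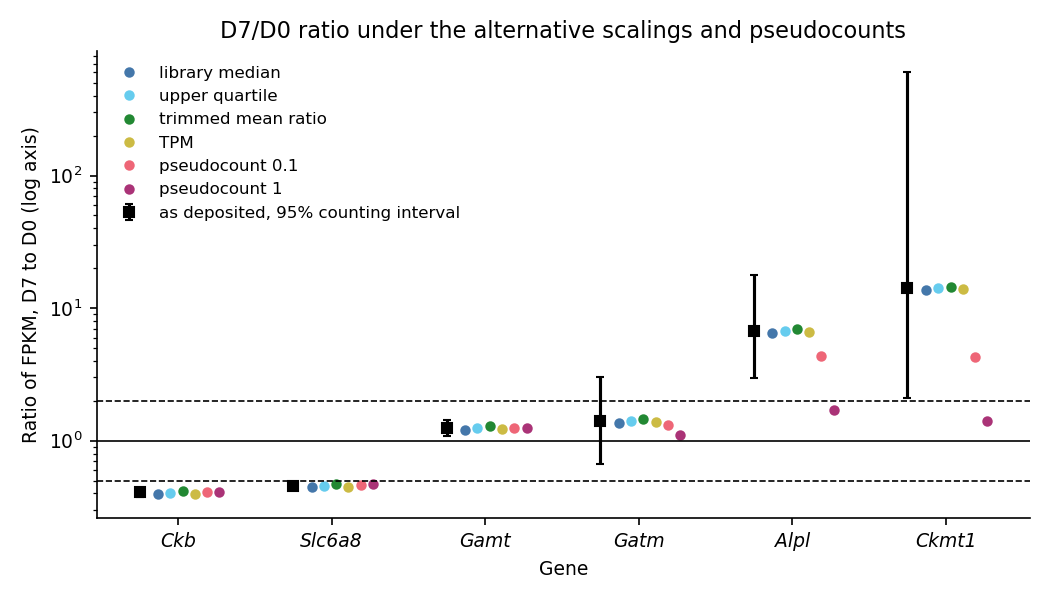
D7/D0 ratio of FPKM (log axis) for the 6 creatine cycle genes above 0 in both libraries, as deposited (black squares with 95% counting intervals) and under 4 scalings and 2 pseudocounts (coloured points); the dashed lines mark 2.0-fold. Ckb, Slc6a8 and Gamt hardly move, while Alpl and Ckmt1 come within 2.0-fold when 1 FPKM is added to both values.

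Genes with the most similar pair of levels were sought for each member, as the smallest distance in log2(FPKM + 0.1) over the 2 libraries among 13347 genes. For Ckb these were Phgdh, the first enzyme of serine synthesis, at 108 and 41.2 FPKM, and Dynll1, a dynein light chain, at 97.6 and 40.5 FPKM. For Slc6a8 they were Lpp, a focal adhesion protein, at 39.8 and 18.3 FPKM, and Creb3l1, a membrane-bound transcription factor, at 40.9 and 18.1 FPKM. For Gamt they were Rbfa and Cbr3, for Gatm St6galnac2 and Epsti1, and for Alpl Necab3 and Bst1. Ckmt1 was not compared, because its D0 level rested on 1 fragment and more than 3 were required in both libraries.

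Promoter sequence was available from RefSeq (GRCm38.p6) for 7 of the 8 genes, as the 250 bases before each annotated start. The window of Slc6a8 was not among them. Shown here are those of the members past 2.0-fold, with the motif matches found by a search of both strands in capitals. Ckmt1 and Alpl each have 2 annotated starts, and the window of the one nearest to the end of the deposited locus is given.
Ckb, chr12:111672339-111672588, minus strand: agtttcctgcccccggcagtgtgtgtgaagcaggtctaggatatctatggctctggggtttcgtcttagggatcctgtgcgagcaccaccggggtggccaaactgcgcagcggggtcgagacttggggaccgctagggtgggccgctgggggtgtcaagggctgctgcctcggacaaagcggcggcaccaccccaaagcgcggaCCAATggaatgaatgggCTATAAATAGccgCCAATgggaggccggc
Ckmt1, chr2:121358360-121358609, plus strand: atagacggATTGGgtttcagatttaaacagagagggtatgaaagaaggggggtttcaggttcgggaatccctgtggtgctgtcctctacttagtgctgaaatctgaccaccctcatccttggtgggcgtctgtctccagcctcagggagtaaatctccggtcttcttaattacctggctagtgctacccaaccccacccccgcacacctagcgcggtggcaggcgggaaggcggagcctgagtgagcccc
Alpl, chr4:137796385-137796634, minus strand: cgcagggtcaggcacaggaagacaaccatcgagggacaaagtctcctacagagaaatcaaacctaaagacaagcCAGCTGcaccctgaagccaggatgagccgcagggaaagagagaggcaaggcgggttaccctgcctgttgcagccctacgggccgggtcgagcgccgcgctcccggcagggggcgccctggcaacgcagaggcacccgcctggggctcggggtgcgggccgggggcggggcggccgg
In the Ckb window the capitals mark a CCAAT box 46 bases and another 16 bases before the start, and between them a MEF2 box 29 bases before it, whose letters also contain TATAAA. Of 32851 promoter windows of the same length 33.8% held a CCAAT box and 0.508% a MEF2 box, and no other member held a MEF2 box. These motifs were chosen after the sequences had been seen. The capitals in the Ckmt1 window are a CCAAT box on the reverse strand, and those in the Alpl window an E-box (CANNTG), which 66.2% of windows held. Of the 7 members with a window, 4 held an E-box and 4 a CCAAT box. A search of the windows extended by 50 bases past the start found the extended site of the oestrogen-related receptors (TNAAGGTCA) and the DR1 element in none of the 7, against 1.28% and 0.0396% of all windows. The CRE core (TGACG) was found in 1 of the 7, at the inner start site of Alpl, against 20.8% of all windows.

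The genes around the cycle were described by lists drawn up by function. Over the 14984 symbols above 0 in both libraries, 13.2% were lower and 18.5% higher. In the arginine and glycine supply, 9 of 10 genes were above 0 in both libraries, of which 3 were lower and 1 higher (median log2 ratio -0.37). The higher gene, Arg1, rested on 1 and 6 fragments (interval 0.858 to 325). Arg2, among the lower ones, rested on 3 and 1 (interval 0.00748 to 4.89). Slc7a1, the main cationic amino acid transporter, was 2.52-fold lower, at 11.7 and 4.65 FPKM. Shmt2, the mitochondrial enzyme that makes glycine from serine, was 2.03-fold lower, at 37.5 and 18.5 FPKM. Ass1, which makes argininosuccinate, was just inside the threshold at 19.4 and 9.72 FPKM, and Asl, the next enzyme, was at 20.9 and 20.4 FPKM. Oat, which interconverts ornithine and glutamate semialdehyde, was the most abundant of the list, at 203 and 158 FPKM.

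The methyl donor cycle supplies S-adenosylmethionine, the methyl source of Gamt. Of its 14 genes 10 were above 0 in both, with 2 higher and none lower (median log2 ratio 0.30). The higher genes were Ahcyl2, a relative of S-adenosylhomocysteine hydrolase, at 5.10 and 41.2 FPKM (ratio 8.08), and Pemt, another S-adenosylmethionine-dependent methyltransferase, at 3.13 and 7.05 FPKM (ratio 2.25). Mat2a, which makes the methyl donor, was at 65.6 and 91.1 FPKM, a ratio of 1.39 close to that of Gamt. Its regulatory subunit Mat2b was at 36.8 and 47.4 FPKM. Ahcy, which clears the product that inhibits methyltransferases, was at 40.4 and 29.6 FPKM, and its relative Ahcyl1 at 101 and 120 FPKM. Nnmt, a competing methyltransferase, was at 67.6 and 85.7 FPKM, and Mtrr, which keeps methionine synthase active, had a ratio of 0.660.

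Other phosphate-transfer enzymes split by gene. Of 13 measured genes 12 were above 0 in both, with 2 higher and 4 lower (median log2 ratio -0.43). Ak3, the adenylate kinase of the mitochondrial matrix, was higher by a ratio of 5.46, at 26.6 and 145 FPKM. The cytosolic Ak1 was at 144 and 82.9 FPKM and Ak5 was 3.14-fold lower. The nucleoside diphosphate kinases Nme1, Nme2 and Nme4 were 2.17-, 2.32- and 2.25-fold lower, sizes near that of Ckb. Guk1 and Cmpk1, which phosphorylate guanylate and the pyrimidine monophosphates, had ratios of 0.656 and 1.70.

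Of 7 transporters related to Slc6a8 by sequence or substrate, 4 were above 0 in both and all lay within 2.0-fold (median log2 ratio -0.27). Slc6a6, the taurine transporter, was at 34.1 and 26.6 FPKM, and Slc6a9, a glycine transporter, was at 6.38 and 5.62 FPKM. Slc16a12, which also carries creatine, was at 0.303 and 0.238 FPKM, and Slc6a13 was listed at 0 at D0 and at 3.06 FPKM at D7, both named after their values were seen. Among 7 genes of alkaline phosphatases and pyrophosphate handling, the other alkaline phosphatase genes Alpi, Alppl2 and Akp3 were at 0 in both, and are named after this was seen. Of the 4 above 0 in both, 2 were higher and 1 lower (median log2 ratio 0.64). Phospho1, a phosphatase of phosphocholine and phosphoethanolamine, was at 0.538 FPKM at D0 and 8.84 FPKM at D7 (ratio 16.4; 10.4 to 27.3), and its D7 level was thus above that of Alpl. Enpp1, which makes pyrophosphate, was 5.16-fold lower. Ank, which exports pyrophosphate, was at 23.2 and 24.7 FPKM, and the phosphatase gene Pdxp had a ratio of 2.28.

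Mitochondrial creatine kinase works beside the adenine nucleotide translocases and the voltage-dependent channels. Of these 6 genes 2 were higher and none lower (median log2 ratio 0.29). Slc25a31, 1 of the 2, rested on 1 fragment at D0 and 2 at D7 (ratio 2.35, 0.123 to 139). The median was 0.12 over the genes with an FPKM of at least 1 in a library. Slc25a5, the second translocase, was at 183 and 461 FPKM (ratio 2.52), whereas Slc25a4, the first, was at 465 and 410 FPKM. The channels Vdac1, Vdac2 and Vdac3 had ratios of 1.38, 1.05 and 1.09. The oestrogen-related receptors and their coactivators, regulators of mitochondrial genes, were higher in 5 of 5 cases (median log2 ratio 2.66). This median was 1.77 with a pseudocount of 0.1, 1.37 with one of 1, and 4.04 over the 3 genes with an FPKM of at least 1 at D7. Esrrb rested on 3 fragments at D0 and 11 at D7, with a ratio of 4.31 and an interval of 1.14 to 24.1. Esrrg rested on 9 and 48 fragments, and both genes stayed under 1 FPKM. Esrra was at 16.1 and 43.3 FPKM, and Ppargc1a at 0.0370 and 4.41 FPKM (ratio 119; 50.7 to 368). Ppargc1b was at 0.241 and 3.97 FPKM (ratio 16.5).

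**Figure D4:**
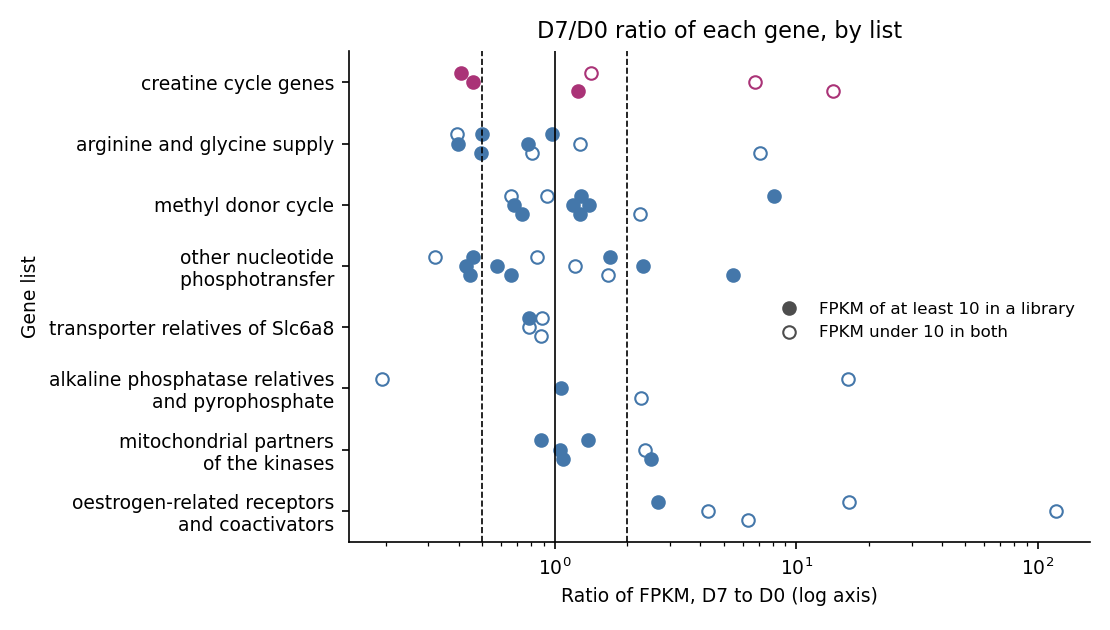
D7/D0 ratio of FPKM (log axis) of each gene with fragments in both libraries, by list, for the creatine cycle genes (top row) and the 7 lists around them; filled points reach 10 FPKM in at least 1 library and open points do not, and dashed lines mark 2.0-fold. Of the creatine cycle genes, the filled points are Ckb, Slc6a8 and Gamt, and the regulators in the bottom row all lie to the right of the upper dashed line.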

How the data were processed

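RNA of 1 D0 and 1 D7 culture was sequenced. The deposited table holds 1 FPKM value per gene and library, computed by the authors from reads aligned to mm10. The submitters' processing notes name Bowtie2 and the study's methods SOAP2; the library was made by degrading the second cDNA strand, and whether counting used the strand is not given in the sources used here. Of 27324 rows, 3963 had no value, and 2 repeats of a symbol were left out. Members and lists were chosen with earlier results of these data known.

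Ratios are D7/D0 of the FPKM as deposited, with no pseudocount. Fragments were recovered from 600 single-exon genes (length correction 179 bp at D0 and 182 bp at D7), where 100% of low values came out whole within 0.1 fragment. Among genes with several exons and 1 transcript the share was 71.6% and 70.4%, so fragment numbers of such genes are approximate. The recovery on single-exon genes and the ratio intervals were tested on simulated data. Intervals are exact (Clopper-Pearson for ratios and shares, Poisson for levels; SciPy 1.17.1). Gene positions are from GENCODE (GRCm38). Named are the 8 members, up to 3 genes per list with the largest change among those over 3 fragments in both libraries and at least 1 FPKM in a library, genes of a list reaching 10 FPKM, the 2 genes nearest to each member, and markers on which a result rests. Some genes that this rule names are not reported here. Alternatives were 4 scalings, 2 pseudocounts, summed rows, filters, another threshold and other gene lengths.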

Additional observations from a re-analysis of the deposited data

How the results depend on the processing

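Under the 4 scalings and with rows of one symbol summed, each of the 6 ratios stayed inside its counting interval and the counts of 2 lower and 2 higher genes were unchanged. The ranges over all 7 alternatives were 0.396 to 0.419 for Ckb, 0.446 to 0.472 for Slc6a8, 1.21 to 1.28 for Gamt, 1.10 to 1.45 for Gatm, 1.70 to 6.91 for Alpl and 1.42 to 14.5 for Ckmt1. With a pseudocount of 1 the ratios of Ckmt1 and Alpl were 1.42 and 1.70, and 0 genes were at least 2.0-fold higher. A filter at FPKM 1 in at least 1 library also left 0 higher, and a 4.0-fold threshold left 0 lower. By fragments in place of FPKM, the share of Ckmt1 among the kinases was 0.0351% at D0 and 1.20% at D7. Of 128 alternative list medians 119 were within 1.5-fold of the reported ratio, 9 moved further and 0 turned. The union of exons as length gave more fragments (5980 and 2072 for Ckb). The Ckm limits on the transcript nearest to the deposited locus, and the CCAAT and MEF2 motifs, were chosen after seeing the data. Depth limits Gatm, Ckmt1 and Alpl, which rest on 1 to 40 fragments. No paired analysis was possible because each stage had 1 library.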
